A study of Mus musculus with 2 samples.

Results

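The miR-30 family was followed in livers of mice on a short-term ethanol feeding protocol, through 5p and 3p strands of its 5 letters, a to e. The members were the rows named exactly mmu-miR-30a-5p, mmu-miR-30a-3p, mmu-miR-30b-5p, mmu-miR-30b-3p, mmu-miR-30c-5p, mmu-miR-30c-2-3p, mmu-miR-30d-5p, mmu-miR-30d-3p, mmu-miR-30e-5p and mmu-miR-30e-3p. All 10 were listed in both deposited tables, of 484 microRNA names in the first (experiment 1) and 1915 in the second (experiment 2). Livers came from wild-type female C57BL/6 mice aged 8 to 10 weeks, and all mice took the liquid Lieber-DeCarli control diet for 5 days first. Ethanol-fed mice then had the diet with 5% (v/v) ethanol for 10 days and a gavage of 6 g/kg ethanol on day 16. Control mice were pair-fed an isocaloric diet and had a gavage of dextrin-maltose, and livers were taken 9 h after gavage in both groups. Each table held 1 pair-fed and 1 ethanol-fed library, and the labels list 1 sample per group, so no spread between mice could be given and no test was made. Every difference is between libraries, and the number of mice behind each library is not given in the sources used here.

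MicroRNAs are cut from a hairpin RNA whose left arm gives the 5p strand and whose right arm gives the 3p strand. One strand, the guide, is usually kept in the silencing complex and pairs with target mRNAs through its seed, while the other is mostly degraded. The 5p strands of the miR-30 family share their seed and are abundant in liver and other epithelial tissues. Published targets of miR-30 include the autophagy gene *Becn1*, the lipoprotein assembly gene *Mttp* and *Ctgf*, a gene of fibrosis. None of these target mRNAs was measured here.

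Mature sequences are shown because family members can be told apart only by their later bases. Sequences from RefSeq (GRCm38.p6) were matched by name for 6 of the 10 members and are printed below with the seed (bases 2 to 8) in capitals.

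mmu-miR-30a-5p: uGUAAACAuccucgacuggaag

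mmu-miR-30e-5p: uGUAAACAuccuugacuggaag

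mmu-miR-30c-5p: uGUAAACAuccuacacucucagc

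mmu-miR-30a-3p: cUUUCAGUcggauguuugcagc

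mmu-miR-30e-3p: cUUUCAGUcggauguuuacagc

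mmu-miR-30c-2-3p: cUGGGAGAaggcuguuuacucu

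The 3 printed 5p strands carried the seed GUAAACA and were identical over their first 12 bases. Counted from 1 at the 5′ end, miR-30a-5p and miR-30e-5p differed by the single substitution C13U over 22 bases. Over the same 22 bases, miR-30a-5p and miR-30c-5p differed at 5 positions. The 3p strands of miR-30a and miR-30e shared the seed UUUCAGU and differed by G18A alone. The 3p strand of miR-30c-2 carried another seed, UGGGAGA. How many mismatches a counted read could hold is not given in the sources used here, so reads of miR-30a and miR-30e could have been split between these near-identical names.

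The hairpins of miR-30a and miR-30e are shown to place both strands, which stand in capitals.

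Mir30a: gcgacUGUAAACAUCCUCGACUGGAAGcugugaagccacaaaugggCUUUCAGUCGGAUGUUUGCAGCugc

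Mir30e: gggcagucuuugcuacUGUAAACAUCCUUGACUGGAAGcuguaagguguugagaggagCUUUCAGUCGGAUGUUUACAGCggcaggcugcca

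In GRCm38.p6, Mir30a lies at chr1:23272269-23272339 on the plus strand, where the GENCODE vM21 annotation (GRCm38) holds no other gene. Mir30c-2 follows on the same strand at chr1:23291701-23291784, with 19361 bases between the hairpins, and overlaps an exon of the lincRNA gene Gm27028. Mir30e (chr4:120772606-120772697) and Mir30c-1 (chr4:120769534-120769622) lie on the minus strand in introns of *Nfyc*, which codes for a subunit of the transcription factor NF-Y. These 2 hairpins are 2983 bases apart. The mature miR-30c-5p is the same 23 bases from Mir30c-1 and from Mir30c-2, so its reads cannot be assigned to either gene. The submitters' processing notes name the mouse build mm8, and the tables hold no coordinates.

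Experiment 1 was deposited as read counts, with 4170601 (pair-fed) and 4311802 (ethanol-fed) reads on microRNAs. Experiment 2 was deposited as reads per 1000000 reads on microRNAs (RPM). From the size of the smallest steps, its depth was estimated at 10812500 reads (pair-fed) and 10821000 reads (ethanol-fed). Values under 10 reads were listed as 0 there. Counts of experiment 1 were put on the RPM scale for levels, and intervals are 95% intervals that cover counting error only, since PCR copies of a molecule cannot be told apart. All 5 hepatocyte microRNAs on a marker list were above 0 in every library. The best known, miR-122-5p, was at 2971 and 2210 RPM in experiment 1 and at 182938 and 156660 RPM in experiment 2, in the pair-fed and ethanol-fed library in turn. The 2 tables were normalized separately and differed widely in this way, so ethanol-fed and pair-fed libraries were compared only within a table.

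The 10 members together took 3.53% (pair-fed, Wilson interval 3.51 to 3.54) and 3.55% (ethanol-fed, 3.53 to 3.56) of microRNA reads in experiment 1. In experiment 2 they took 4.77% (4.75 to 4.78) and 5.18% (5.17 to 5.19). The log2 ratio of the family sum in experiment 1 was 0.0080, with an interval of -0.0023 to 0.02 that holds 0 on the RPM scale. Other scalings shifted the members' ratios there by 0.048 (unscaled reads), 0.034 (median-of-ratios size factors) or -0.035 (total taken without the top microRNA). Each shift is larger than this interval is wide, so whether the interval holds 0, and the direction, depend on the scaling. In experiment 2 the ethanol-fed sum was 8.71% larger than the pair-fed one. The 5p strands made up most of it in every library, with 31186 and 32429 RPM in experiment 1 and 45646 and 49568 RPM in experiment 2.

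The guide strand mmu-miR-30a-5p, the member with the most reads, had 27752 RPM (pair-fed) and 28873 RPM (ethanol-fed) in experiment 1, then 20983 and 22142 RPM in experiment 2. It was the highest member in all 4 libraries, where it ranked between place 6 and place 11 of all microRNAs. Its level was slightly higher in the ethanol-fed library both times, with log2 ratios of 0.06 (interval 0.05 to 0.07) and 0.08 (0.07 to 0.09).

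**Figure D1:**
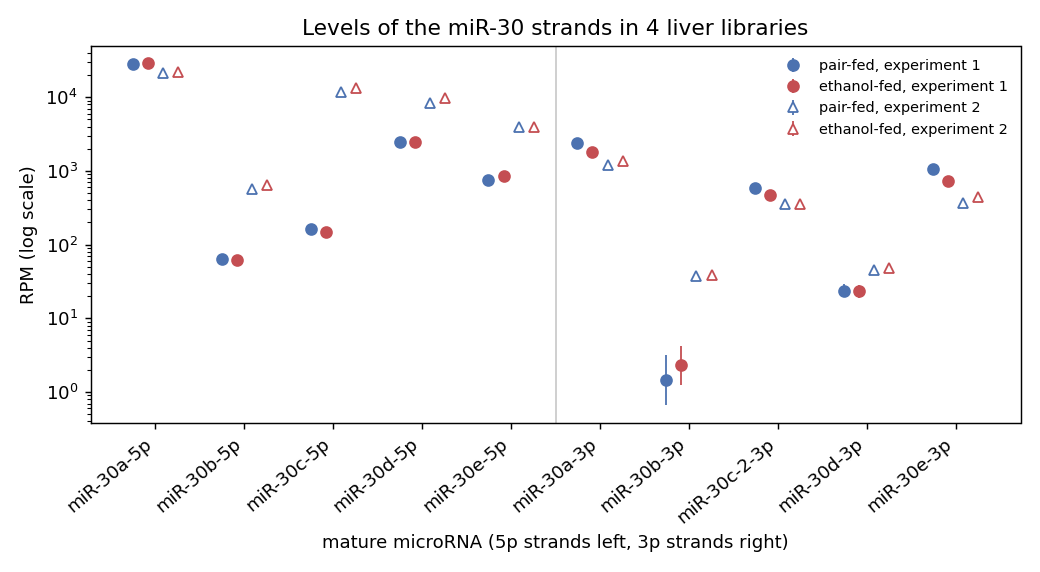
Level of each miR-30 strand in RPM (log axis) in the 4 libraries. Filled circles are experiment 1, open triangles experiment 2, blue pair-fed and red ethanol-fed, and lines are 95% Wilson intervals, hidden by most points. Ethanol-fed and pair-fed points of 1 table lie close together, whereas miR-30c-5p lies near 164 RPM in experiment 1 and near 11933 RPM in experiment 2 (pair-fed).

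The guide strand mmu-miR-30d-5p stood at 2444 RPM (pair-fed) and 2503 RPM (ethanol-fed) in experiment 1, and at 8285 and 9721 RPM in experiment 2. The log2 ratio was 0.03 in experiment 1, with an interval of -0.0043 to 0.07 that holds 0. In experiment 2 it was 0.23 (0.22 to 0.24), and this was the largest ratio among the 5p strands of that table. mmu-miR-30e-5p had 763 and 844 RPM in experiment 1 and 3881 and 3911 RPM in experiment 2. For miR-30e-5p the larger log2 ratio was that of experiment 1, 0.15 (0.08 to 0.21), beside 0.01 (-0.0083 to 0.03) in experiment 2.

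mmu-miR-30c-5p had 164 RPM from 684 reads (pair-fed) and 146 RPM from 631 reads (ethanol-fed) in experiment 1. Its levels in experiment 2 were 11933 and 13140 RPM. It was lower in the ethanol-fed library in experiment 1 (log2 ratio -0.16, interval -0.32 to -0.0062) and higher in experiment 2 (0.14, 0.13 to 0.15). With unscaled reads or median-of-ratios size factors, the interval of experiment 1 held 0 (-0.27 to 0.04 and -0.29 to 0.03). mmu-miR-30b-5p was the lowest 5p strand, with 63.3 and 61.9 RPM in experiment 1 and 565 and 654 RPM in experiment 2. Its log2 ratio was -0.03 (-0.28 to 0.22) in experiment 1 and 0.21 (0.16 to 0.26) in experiment 2. No direction can be read for miR-30b-5p from experiment 1.

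The summed 3p strands lay on opposite sides of 0 in the 2 experiments, which rested on miR-30a-3p and miR-30e-3p, while no other 3p strand reversed beyond counting error. Summed over the 3p members, they were at 4068 RPM (pair-fed) and 3021 RPM (ethanol-fed) in experiment 1, a log2 ratio of -0.43 (-0.46 to -0.40). In experiment 2 the sum was 2018 RPM (pair-fed) and 2250 RPM (ethanol-fed), a log2 ratio of 0.16 (0.13 to 0.18). The summed 5p strands had log2 ratios of 0.06 (0.05 to 0.07) in experiment 1 and 0.12 (0.11 to 0.12) in experiment 2.

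The partner strand mmu-miR-30e-3p stood at 1047 RPM (pair-fed) and 730 RPM (ethanol-fed) in experiment 1, a log2 ratio of -0.52 (-0.59 to -0.45). Experiment 2 gave 368 and 442 RPM, a log2 ratio of 0.26 (0.20 to 0.32). mmu-miR-30a-3p, which shares its seed, was at 2407 and 1788 RPM in experiment 1 (-0.43, -0.47 to -0.39). Experiment 2 gave 1210 RPM (pair-fed) and 1368 RPM (ethanol-fed), a log2 ratio of 0.18 (0.14 to 0.21). Both strands with the seed UUUCAGU were thus lower in the ethanol-fed library of experiment 1 and higher in that of experiment 2, beyond counting error each time. Reads could have been split between these near-identical names, so the 2 strands may not be separate measurements.

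mmu-miR-30c-2-3p was at 589 and 478 RPM in experiment 1, a log2 ratio of -0.30 (-0.39 to -0.22). In experiment 2, with 356 and 352 RPM, its log2 ratio of -0.02 had an interval that holds 0 (-0.08 to 0.05). mmu-miR-30d-3p was at 23.7 and 23.2 RPM in experiment 1 and at 44.9 and 49.0 RPM in experiment 2, and both intervals hold 0. mmu-miR-30b-3p, the member with the fewest reads in every library, had 6 reads (pair-fed) and 10 reads (ethanol-fed) in experiment 1. Its log2 ratio of 0.60 there had an interval from -0.91 to 2.43, so no difference was detectable at this depth. In experiment 2 it had 37.9 and 39.0 RPM and a log2 ratio of 0.04 (-0.16 to 0.24).

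**Figure D2:**
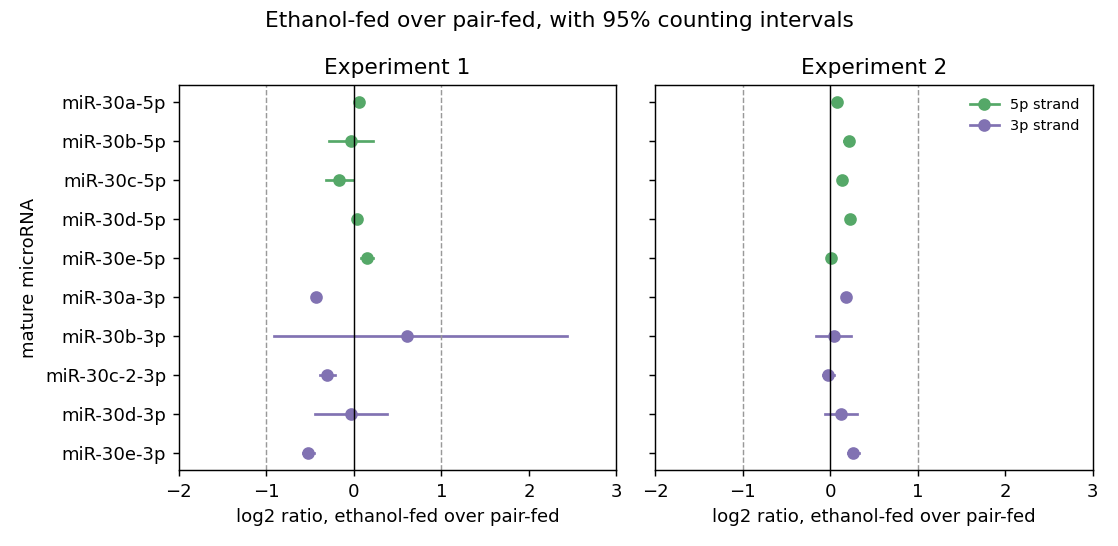
Log2 ratio (RPM, ethanol-fed to pair-fed) of each miR-30 strand in experiments 1 and 2. Green points are 5p strands, purple points 3p strands, lines are 95% counting intervals, and dashed lines mark a 2-fold difference. In experiment 1 the intervals of miR-30a-3p, miR-30c-5p, miR-30c-2-3p and miR-30e-3p lie wholly left of 0. In experiment 2 no interval lies wholly left of 0.

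Among the 10 members, 0 differed 2-fold or more between the 2 libraries of either table. In the same comparison, 12.6% of 302 microRNAs with at least 10 reads in experiment 1 were at least 2-fold higher in the ethanol-fed library, and 12.9% were at least 2-fold lower. In experiment 2, 10.7% of 469 were higher and 15.1% were lower. With zeros of experiment 2 at the lowest listed value, 23 were higher and 49 lower instead of 50 and 71. All 10 members passed the minimum of 10 reads in both tables, and 7 had at least 1000 reads in each. Among microRNAs with at least 1000 reads, 3 of 82 were 2-fold higher and 2 were 2-fold lower in experiment 1. In experiment 2 these were 3 and 4 of 151, so 0 of 10 members was near this background. By counting intervals, 2 members lay above 0 and 4 below 0 in experiment 1, where 24.5% of all tested microRNAs lay above and 29.1% below. With unscaled reads or median-of-ratios size factors, 3 members lay above (miR-30d-5p added) and 3 below (miR-30c-5p lost) in experiment 1. In experiment 2, 6 members lay above 0 and 0 below, where 31.6% of all lay above and 33.0% below. Intervals narrow as reads rise, and the shares over all tested microRNAs were not matched to the members' reads.

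The median log2 ratio of the members was -0.03 in experiment 1 and 0.13 in experiment 2, beside medians of -0.01 and 0.0026 over all tested microRNAs. The median absolute log2 ratio of the members was 0.15 in experiment 1 and 0.13 in experiment 2, below the 0.52 and 0.41 of all tested microRNAs. Scarce microRNAs scatter more by counting alone. Among microRNAs with at least 1000 reads in a table, the median absolute ratio was 0.23 over 82 names in experiment 1 and 0.21 over 151 names in experiment 2.

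Other families were set beside these values. The 9 guide strands of let-7, the family of differentiation microRNAs, had median log2 ratios of 0.14 in experiment 1 and 0.16 in experiment 2, with 0 of 9 at 2-fold. Of the miR-29 family, known for its collagen targets, 5 of 7 names were tested in experiment 1 with a median of 0.46, where 1 was 2-fold higher and 1 was 2-fold lower. In experiment 2, 6 of 7 were tested with a median of -0.07 and 0 at 2-fold.

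Within each library the members spanned a wide range of levels. In experiment 1 the order from the top was miR-30a-5p, miR-30d-5p, miR-30a-3p, then both strands of miR-30e, then miR-30c-2-3p, miR-30c-5p, miR-30b-5p, miR-30d-3p and miR-30b-3p. The intervals of miR-30d-5p and miR-30a-3p overlapped in the pair-fed library, so their order there cannot be read. miR-30e-3p stood above miR-30e-5p in the pair-fed library and below it in the ethanol-fed library. In both libraries of experiment 2 the order was miR-30a-5p, miR-30c-5p, miR-30d-5p, miR-30e-5p, miR-30a-3p, miR-30b-5p, miR-30e-3p, miR-30c-2-3p, miR-30d-3p and miR-30b-3p. In its pair-fed library the intervals of miR-30e-3p and miR-30c-2-3p overlapped, as did those of miR-30d-3p and miR-30b-3p. In both ethanol-fed libraries no neighbours overlapped.

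The makeup of the 5p pool differed far more between the tables than between the diets. miR-30a-5p was 89.0% of the summed 5p strands in both libraries of experiment 1, but 46.0% (pair-fed) and 44.7% (ethanol-fed) in experiment 2. miR-30c-5p was 0.526% and 0.451% of the sum in experiment 1, and 26.1% and 26.5% in experiment 2. miR-30d-5p was 7.84% and 7.72% in experiment 1, and 18.2% and 19.6% in experiment 2. miR-30e-5p took 2.45% and 2.60%, then 8.50% and 7.89%, and miR-30b-5p took at most 1.32% of the sum in any library.

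**Figure D3:**
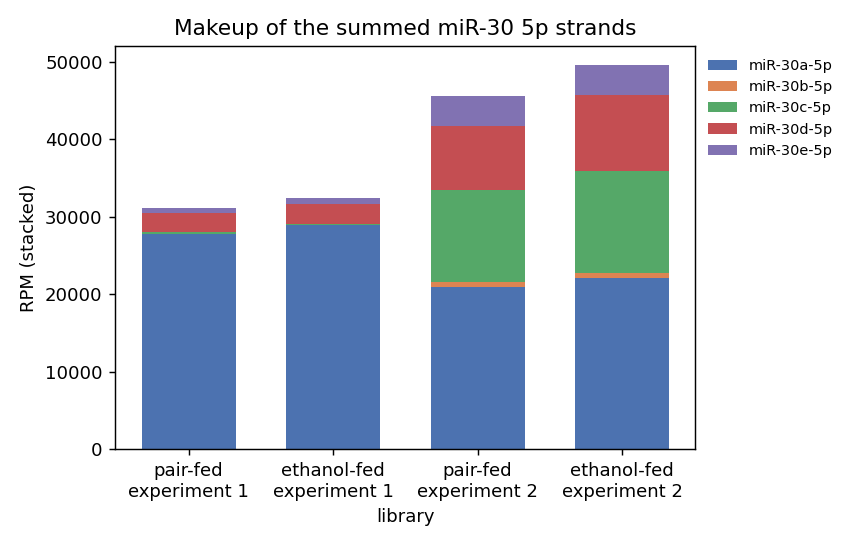
Summed RPM of the 5 miR-30 5p strands in each library, stacked by strand from 0. In experiment 1 the bars are mostly miR-30a-5p (89.0%), and in experiment 2 miR-30c-5p and miR-30d-5p take visible shares (26.1% and 18.2% in the pair-fed library).

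Set side by side across tables, mmu-miR-30c-5p was 72.7-fold higher in experiment 2 than in experiment 1 in the pair-fed libraries and 89.7-fold higher in the ethanol-fed libraries. Of 283 microRNAs compared in this way, 6 and 7 respectively were higher by more. Of the members, 5 were at least 2-fold higher in experiment 2 in the pair-fed libraries, and miR-30e-3p alone was at least 2-fold lower (2.84-fold). In the ethanol-fed libraries 6 members were at least 2-fold higher and 0 lower, with miR-30e-3p 1.65-fold lower. Of all 283 microRNAs, 51.2% were at least 2-fold higher and 19.8% at least 2-fold lower in the pair-fed libraries. The members' counts in those libraries were near this background. In the ethanol-fed libraries, 136 of the 283 were at least 2-fold higher in experiment 2 and 55 at least 2-fold lower. In the pair-fed libraries mmu-miR-30b-3p was 22.6-fold (from 6 reads in experiment 1), mmu-miR-30b-5p 8.89-fold, mmu-miR-30e-5p 5.08-fold and mmu-miR-30d-5p 3.39-fold higher in experiment 2, whereas mmu-miR-30a-5p was 1.32-fold lower. Preparation, sequencing run and read processing of the tables cannot be told apart here, and both tables carry the same diet labels.

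The 2 strands of a hairpin are cut from the same precursor, so their proportion within a library does not depend on scaling between libraries. miR-30d was the most one-sided, with the 3p strand at 0.962% (pair-fed) and 0.918% (ethanol-fed) of its reads in experiment 1 and 0.538% and 0.501% in experiment 2. miR-30a had 7.98% (pair-fed, Wilson interval 7.83 to 8.13) and 5.83% (ethanol-fed, 5.71 to 5.96) of reads on the 3p strand in experiment 1. In experiment 2 the shares were 5.45% (5.36 to 5.55) and 5.82% (5.73 to 5.91), so the direction was reversed. For miR-30b the shares were 2.22% and 3.61% in experiment 1, from few reads, and 6.29% and 5.63% in experiment 2, with overlapping intervals in both.

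miR-30e was split almost evenly in experiment 1. Its 3p strand took 57.8% (pair-fed, 56.7 to 58.9) and 46.4% (ethanol-fed, 45.2 to 47.6), so the more abundant strand was 3p in the former and 5p in the latter. In experiment 2 the 3p strand took 8.67% (8.41 to 8.93) and 10.2% (9.89 to 10.4). miR-30c, taken as miR-30c-5p with miR-30c-2-3p, had 78.2% and 76.5% of its reads on the 3p strand in experiment 1, and 2.90% and 2.61% in experiment 2. The 5p reads of miR-30c can come from Mir30c-1 or Mir30c-2, whereas this 3p strand comes from Mir30c-2 alone. The share is therefore not that of a single hairpin. With both 3p forms of miR-30c summed it was 79.0% and 77.4% in experiment 1, and 3.01% and 2.73% in experiment 2. The 3p strand was thus the more abundant one of miR-30c in experiment 1 and the minor one in experiment 2, in both diets.

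**Figure D4:**
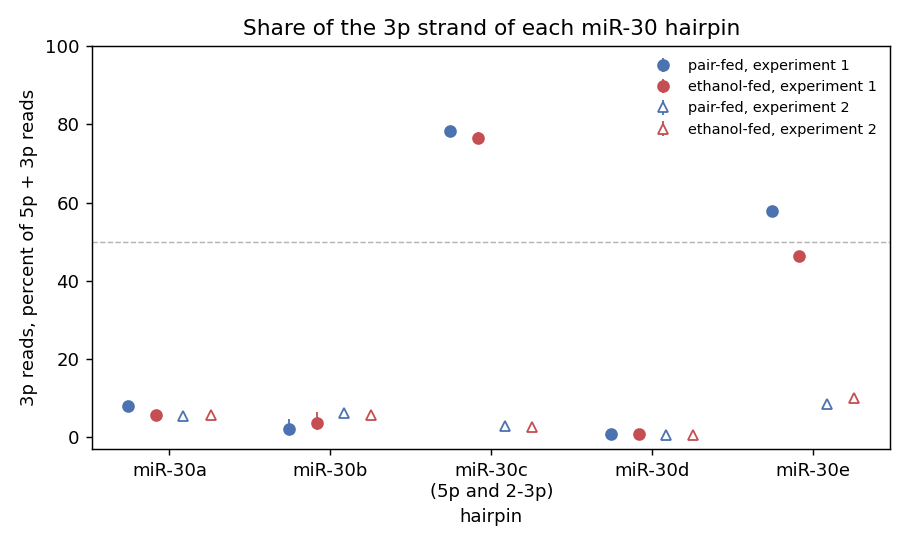
Share of the 3p strand in percent of the 5p and 3p reads of each miR-30 hairpin, with miR-30c taken as miR-30c-5p and miR-30c-2-3p. Filled circles are experiment 1, open triangles experiment 2, blue pair-fed and red ethanol-fed, with 95% Wilson intervals, and the dashed line marks equal strands. miR-30c lies at 78.2% and 76.5% in experiment 1 and under 3% in experiment 2, and miR-30e at 57.8% (pair-fed) and 46.4% (ethanol-fed) in experiment 1.

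Other hairpins gave a scale for these shares. In 39 hairpins each strand had at least 10 reads in every library, among them those of miR-30a, miR-30c, miR-30d and miR-30e. miR-30c again stood for miR-30c-5p with miR-30c-2-3p. In experiment 1 the 3p share was lower in the ethanol-fed library in 4 of the 4 miR-30 hairpins and in 22 of the 35 others. The intervals of the 2 libraries overlapped for miR-30c and miR-30d, and miR-30b, left out by the minimum, had a higher share in the ethanol-fed library, also with overlapping intervals. In experiment 2 it was lower in 2 of the 4 and in 13 of the 35. The median log2 change of the 3p to 5p ratio in experiment 1 was -0.31 in the 4 miR-30 hairpins and -0.25 in the others. Between the pair-fed libraries of the 2 tables, the more abundant strand differed in 2 of the 4 (miR-30c and miR-30e) and in 6 of the 35. Among the 39 hairpins, the pair-fed 3p to 5p ratio fell most from experiment 1 to experiment 2 in miR-30c (log2 -6.91). The next largest fall was in miR-99a (-4.59). The ratio rose by more than this in miR-126a (7.69), miR-361 (5.45) and miR-181c (5.10), and the rise in miR-126a was larger in size than the fall in miR-30c.

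Relatives outside the 10 names were few. mmu-miR-30c-1-3p shares the seed UGGGAGA with miR-30c-2-3p and differs from it by A9G, C12U and U22C, counted from its 5′ end with the miR-30c-2-3p base first. It was at 27.8 and 22.5 RPM in experiment 1 and at 14.4 and 17.4 RPM in experiment 2, and its log2 ratios of -0.30 and 0.27 both had intervals that hold 0. mmu-miR-384-5p, which carries the seed GUAAACA, mmu-miR-384-3p and mmu-miR-30f, encoded opposite Mir30e, were listed at 0 in both libraries of experiment 2, which allows up to 9 reads, and had no row in experiment 1. mmu-miR-6958-5p, which carries the seed UGGGAGA, was likewise listed at 0 in experiment 2.

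The level of the summed 5p strands over the 4 libraries was compared with that of 77 microRNAs with at least 1000 reads in each table, 7 of them members. By Euclidean distance of centred log2 RPM the nearest of the 70 others were mmu-miR-107-3p (0.12), mmu-miR-1839-5p (0.32) and mmu-miR-27b-3p (0.35). Among the members themselves, miR-30a-5p was at 0.97 and miR-30c-5p at 5.76. All points compared come from the same 4 libraries, with the gap between the tables included. In experiments 1 and 2, the log2 ratios were 0.08 and -0.03 (miR-107-3p), 0.10 and -0.17 (miR-1839-5p) and -0.12 and 0.29 (miR-27b-3p). Each was thus below 0 in 1 experiment, whereas the summed 5p strands were above 0 in both.

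In whole liver, fewer cells of a type and less RNA per cell cannot be told apart. Red cell microRNAs differed between the diets in opposite directions in the 2 tables. All 4 red cell markers were higher in the ethanol-fed library of experiment 1, with summed levels of 11559 RPM (pair-fed) and 33915 RPM (ethanol-fed). These sums were mostly miR-486a-5p, at 11512 and 33721 RPM. All 4 red cell markers were lower in the ethanol-fed library of experiment 2, with sums of 1826 and 1152 RPM. All 4 white cell markers were lower in the ethanol-fed library both times, with sums of 404 and 335 RPM in experiment 1 and 872 and 463 RPM in experiment 2. Hepatocyte markers summed to 392440 and 376668 RPM in experiment 1, mostly miR-192-5p (388161 and 373090 RPM). In experiment 2 they summed to 324435 and 291835 RPM, mostly miR-122-5p and miR-192-5p. Of the 5 hepatocyte markers, 2 (miR-194-5p and miR-802-5p) were higher in the ethanol-fed library both times. Of the mesenchyme markers, 3 of 4 were higher in the ethanol-fed library of experiment 1, 2 of them at least 2-fold (miR-145a-5p and miR-214-3p), and 2 of 4 were higher in experiment 2. In experiment 1 miR-214-3p was scarce, at 0.72 RPM (pair-fed) and 4.64 RPM (ethanol-fed), where 1 read was 0.24 and 0.23 RPM. Sums of the mesenchyme markers, mostly miR-143-3p, were 96518 and 96073 RPM in experiment 1 and 18978 and 24067 RPM in experiment 2. Both endothelial markers were higher in both ethanol-fed libraries, with sums of 3854 and 5142 RPM and then 22335 and 26332 RPM. Pancreas markers were 4 of 4 higher in the ethanol-fed library of experiment 2 (5.92 and 113 RPM summed), while 1 of 4 had enough reads in experiment 1, where the sums were 85.1 and 48.5 RPM. The part of these markers in the miR-30 values was not tested.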

How the data were processed

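Total liver RNA was size-fractionated on polyacrylamide gels and sequenced as small RNA libraries. The authors deposited experiment 1 as unnormalized read counts per mature microRNA. Experiment 2 was deposited as RPM over reads on microRNAs, with a repeat of both columns. Their columns of log2 fold change and p-value were not used. Aligner, annotation and filters are not given in the sources used here.

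Reads of experiment 2 were estimated by dividing by the step of 0.0925 RPM (pair-fed) or 0.0924 RPM (ethanol-fed). Of values under 20 RPM, 95.8% of 239 and 96.2% of 237 were whole reads to within 0.005 RPM. Columns were matched to the labels, 1 sample per group, by name. The log2 ratio, ethanol-fed to pair-fed, was taken on RPM after adding 1 read to each library. This understates changes of scarce microRNAs, except changes from or to the zeros of experiment 2. Values under 10 reads were listed as zeros there, so changes from or to them can be overstated. Names with at least 10 reads in both libraries together were tested, and an absolute log2 ratio of at least 1 counted as 2-fold. With 1 library per group no p-value was computed. Intervals were Wilson for shares and exact binomial for ratios, at 95%. Alternatives were 3 other scalings, a pseudocount of 0.1 read, no minimum or a minimum of 100 reads, zeros of experiment 2 at the lowest listed value, totals without the most abundant microRNAs, and both miR-30c 3p forms summed.

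The named microRNAs were the 10 members, those sharing a seed with a member, miR-30c-1-3p, miR-30f, both strands of miR-384, and the 3 nearest in level pattern. Members, marker lists, families and alternatives were chosen with earlier results of these data known. The script was tested on simulated data. Computation used scipy 1.17.1, numpy 2.4.6 and pandas 2.3.3 under Python 3.11.15, and plots used matplotlib 3.10.9.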

Additional observations from a re-analysis of the deposited data

Results flagged for a closer look

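In 3 members the counting intervals of the log2 ratio lay on opposite sides of 0 in the 2 experiments. The ratio of experiment 2 minus that of experiment 1 was 0.78 for mmu-miR-30e-3p, 0.61 for mmu-miR-30a-3p and 0.30 for mmu-miR-30c-5p. For mmu-miR-30c-5p the interval of experiment 1 held 0 with unscaled reads or median-of-ratios size factors. Each experiment has 1 library per group, so the difference between experiments was not tested.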

How the results depend on the processing

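No miR-30 member reached 2-fold in either table under any scaling, pseudocount or minimum tried. In experiment 1 the log2 ratio of the summed 5p strands was 0.10 with unscaled reads, 0.090 with median-of-ratios size factors and 0.021 without the most abundant microRNA in the total. That of the summed 3p strands was -0.38, -0.40 and -0.46 in the same order. In experiment 2 the summed 5p strands were at 0.11 with median-of-ratios size factors. Small ratios changed sign in experiment 1 for miR-30b-5p and miR-30d-3p (unscaled), miR-30b-5p (median-of-ratios) and miR-30d-5p (most abundant left out), and in experiment 2 for miR-30e-5p (median-of-ratios), all with intervals that hold 0 in the values reported. With unscaled reads or median-of-ratios size factors, the interval of miR-30c-5p in experiment 1 held 0 and that of miR-30d-5p lay above 0. Among the scalings tried, the interval of the family sum in experiment 1 held 0 on the RPM scale only. No scaling moved the median of all microRNAs by more than 0.05.

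Without the most abundant microRNA in the total, the family's share was 5.76% and 5.65% in experiment 1 and 5.85% and 6.38% in experiment 2 (pair-fed, then ethanol-fed). Without miR-122, miR-192, miR-148a and miR-143 it was 7.98%, 7.85%, 9.58% and 9.88% in the same order. The counts over all microRNAs depended on the minimum by construction. In experiment 1, 99 were 2-fold higher and 102 lower with no minimum, and 10 and 9 with 100 reads. In experiment 2, 12 were higher and 24 lower with 100 reads, and 23 were higher and 49 lower with zeros at the lowest listed value.

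Depth limits miR-30b-3p in experiment 1. No paired analysis was made. The tables are numbered 1 and 2, but the labels list 1 sample per group and share no further replicate number. The 2 tables were therefore not taken as separate samples. For the same reason no library was left out.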
